A study of Mus musculus with 9 samples.

Results

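The genes described here are 44 homeobox transcription factors that lie outside the Hox clusters, taken by name from a given list, out of 54532 genes in the count table. All 44 are placed in the Homeobox family by the gene annotation of the table, which lists 232 genes of that family. They were measured by bulk mRNA sequencing of adipose-derived stem cells (ASCs) cultured from C57BL/6 mice. The 3 groups differ by the fat the cells came from: subcutaneous adipose tissue (Sub-ASC), abdominal adipose tissue (Ab-ASC) and perivascular adipose tissue, the fat around arteries (PVASC), with 3 libraries each. Per the study's methods, the cells of all groups were released from fat with collagenase and Dispase, grown in a stem cell medium with fetal bovine serum, leukemia inhibitory factor and FGF, and harvested at passages 3 to 6. None of the groups carried a transgene or a treatment, and neither age nor sex of the mice is stated. The study's methods do not describe sorting of the cells before culture, and abdominal and perivascular fat are not described more closely. The labels do not say whether the 3 libraries of a group came from separate mice or cultures, so every p-value below measures the spread between libraries, which may be technical. In bulk RNA, fewer cells of a type and less RNA per cell cannot be told apart.

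Homeobox genes encode proteins with a homeodomain, a helix-turn-helix fold that binds short AT-rich sites, many of them with the core TAAT. The clustered Hox genes set position along the body axis. The dispersed families treated here act beside them in limb buds, the face and teeth, somites, heart, kidney and brain, and mesenchymal cells in culture are known to keep part of such a code from the place they came from. TALE proteins (Meis, Pbx, Irx) carry a longer loop in the homeodomain, and Meis and Pbx bind DNA together with Hox proteins. LIM-homeodomain proteins (Lhx, Isl1) need Ldb partners, and the sine oculis proteins (Six2, Six4, Six5) need Eya partners.

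Library totals ran from 20524173 to 29881036 counted reads, and 3 reads, taken as the detection floor, equal 0.0917 to 0.161 CPM (counts scaled to a common library total, with TMM factors) depending on the library. The coefficient of biological variation between libraries was 5.7% in Sub-ASC, 12.3% in Ab-ASC and 3.86% in PVASC. By flow cytometry of surface proteins, done on PVASCs only, the paper found Sca1, CD90 and CD105 positive and CD45 and CD31 negative. RNA is another measure than surface protein, and it is given here for Sca1 and CD31 alone. Both were present in every group, but unequally: Ly6a (Sca1) averaged 2049 CPM in Sub-ASC, 21.8 CPM in Ab-ASC and 111 CPM in PVASC, and Pecam1 (CD31) averaged 45.3, 12.5 and 179.6 CPM. The 14 adipose stromal markers together held 25220 to 26030 CPM in Sub-ASC, 13490 to 14110 CPM in Ab-ASC and 10100 to 10520 CPM in PVASC. The 15 proliferation genes held 173.3 to 179.7, 1452 to 1461 and 1181 to 1193 CPM, and all 15 were higher in Ab-ASC and in PVASC than in Sub-ASC.

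A read was found for 43 of the 44 genes, and only Irx4 had none in any library. At least 10 reads in each library of a group were found for 24 members in Sub-ASC, 21 in Ab-ASC and 30 in PVASC, and 16 members reached that in all 9 libraries. On the FPKM scale, which divides by gene length and allows levels of different genes to be compared, 19 members were at or above 1 FPKM in Sub-ASC, 13 in Ab-ASC and 20 in PVASC. Prrx1 alone gave 56.1% to 63.7% of all member CPM in a library. The summed member level was 1237 to 1306 CPM in Sub-ASC, 625.4 to 675 CPM in Ab-ASC and 846.1 to 859.5 CPM in PVASC, without overlap between the groups.

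**Figure D1:**
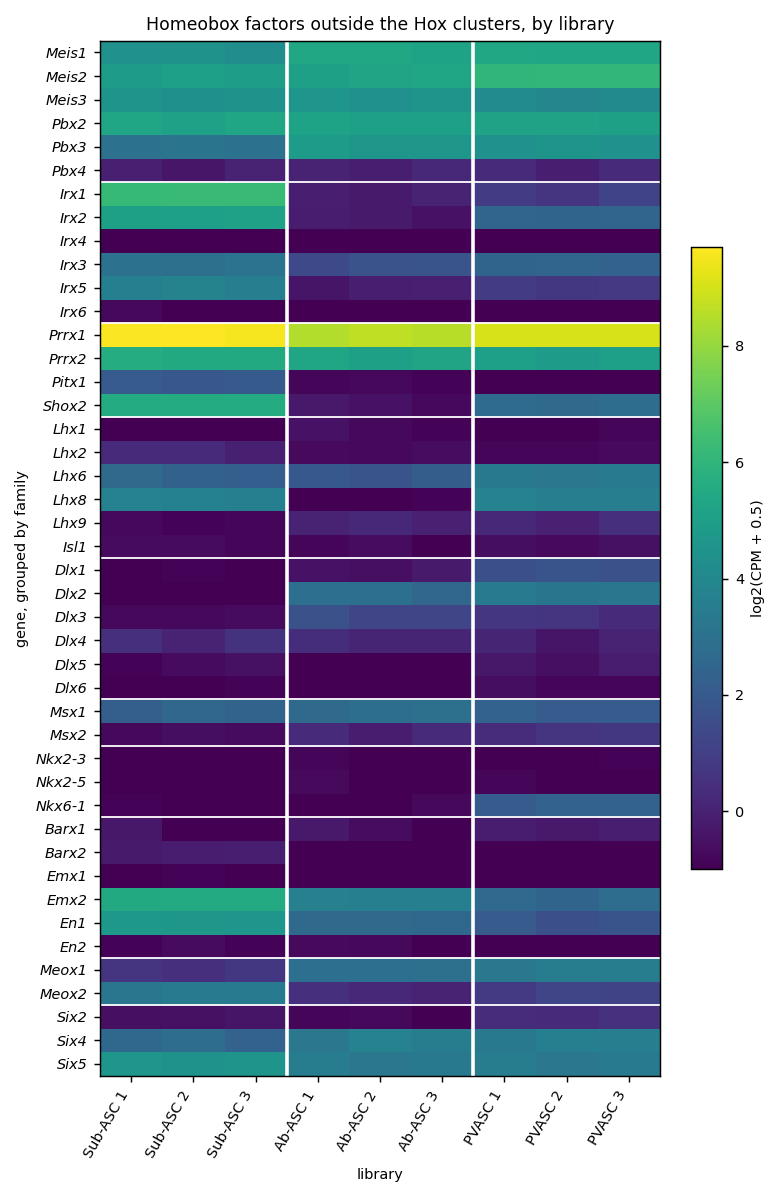
The 44 homeobox genes (rows, grouped by family) in the 9 libraries (columns), colored by log2(CPM + 0.5), a level and not a difference. The 3 libraries of a group look alike in most rows, Irx1, Irx2, Shox2 and Emx2 are brightest in Sub-ASC, Lhx8 is dark only in Ab-ASC, and Nkx6-1 is visible only in PVASC.

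The sequence before the transcript start is shown first for 4 members with large differences between the depots, chosen after their values were seen. RefSeq (GRCm38.p6) start sites gave windows for 32 of the 44 members. Printed are the 250 bases before the start for Dlx2 (chr2:71546755-71547004, minus strand), which had 0 reads in Sub-ASC, and for Irx2 (chr13:72628570-72628819, plus strand), Shox2 (chr3:66981772-66982021, minus strand) and Meox2 (chr12:37108290-37108539, plus strand), which were highest in Sub-ASC and lowest in Ab-ASC. None of the 4 windows holds an annotated exon base. Capitals mark a TAAT core, a TATA box (letters TATAAA) or a CCAAT box, on either strand.
Dlx2: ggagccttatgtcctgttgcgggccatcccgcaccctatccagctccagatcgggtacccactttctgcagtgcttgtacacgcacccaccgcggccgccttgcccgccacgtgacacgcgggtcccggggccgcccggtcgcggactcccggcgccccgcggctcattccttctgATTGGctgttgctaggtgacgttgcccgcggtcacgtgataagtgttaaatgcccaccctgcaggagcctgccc
Irx2: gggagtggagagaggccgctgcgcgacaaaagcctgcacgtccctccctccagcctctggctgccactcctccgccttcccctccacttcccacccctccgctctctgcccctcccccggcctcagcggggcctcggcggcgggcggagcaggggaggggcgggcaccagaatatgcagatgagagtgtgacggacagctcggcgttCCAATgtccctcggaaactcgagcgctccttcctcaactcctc
Shox2: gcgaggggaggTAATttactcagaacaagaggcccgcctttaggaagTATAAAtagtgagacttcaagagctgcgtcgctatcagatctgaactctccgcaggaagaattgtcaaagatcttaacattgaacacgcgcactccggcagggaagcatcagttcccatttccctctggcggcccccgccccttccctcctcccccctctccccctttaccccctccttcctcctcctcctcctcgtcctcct
Meox2: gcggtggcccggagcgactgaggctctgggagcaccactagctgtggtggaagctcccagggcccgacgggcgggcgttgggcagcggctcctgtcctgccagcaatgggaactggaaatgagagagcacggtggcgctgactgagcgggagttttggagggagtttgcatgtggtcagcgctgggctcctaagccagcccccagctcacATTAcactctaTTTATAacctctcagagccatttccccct

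The Shox2 and Meox2 windows each hold a TAAT core and a TATA box on either strand, and the Dlx2 and Irx2 windows each hold a CCAAT box and neither of the other motifs. Searched on both strands, TAAT was found in 16 of the 36 windows of these 32 members (44.4%), against 54.9% of 32851 windows of the same length, and the CCAAT box in 17 (47.2%), against 33.8%. The TATA box was found in 3 of the 36 (8.33%), against 12.4%, the GC box (GGGCGG) in 20 (55.6%), against 32.7%, and the Meis site TGACAG in 6 (16.7%), against 15.9%. In 8 of the 36, those of Dlx1, Emx1, Emx2, Irx3, Msx2, Nkx6-1 and Prrx2 and 1 of the Lhx2 windows, every base is annotated exon. GC content was 66.4% in the Dlx2 window, 68.4% in the Irx2 window, 55.6% in the Shox2 window and 62% in the Meox2 window, against a median of 52.4% over all windows. A match describes letters in the window and says nothing of binding.

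Of the 44 members, 32 passed the filter on low counts and entered the test. Between PVASC and Sub-ASC, 27 of the 32 differed (edgeR's quasi-likelihood test, adjusted p under 0.05 with Benjamini-Hochberg over 16526 genes), against 70.4% of all genes tested. Of the 27, 13 were higher in PVASC (34.7% of all genes) and 14 lower (35.7%). With a change of at least 2-fold, 20 of the 32 differed, 10 in each direction, against 32.2% of all genes. Between Ab-ASC and Sub-ASC, 27 differed, against 75.3% of all genes, with 11 higher in Ab-ASC (37%) and 16 lower (38.3%), and 21 by at least 2-fold, against 37.8%. Between PVASC and Ab-ASC, 23 differed, against 56.9% of all genes, with 15 higher in PVASC (24.7%) and 8 lower (32.1%), and 13 by at least 2-fold, against 15.4%. Because a gene that is high in 1 group passes the filter through that group, these counts, and the medians and orders given next, describe the 32 tested genes and not the family.

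The median absolute log2 fold change of the 32 members was 2.23 between PVASC and Sub-ASC, against 0.59 over all genes tested. It was 2.0 between Ab-ASC and Sub-ASC, against 0.75, and 0.79 between PVASC and Ab-ASC, against 0.38. The signed medians were -0.18, -0.33 and 0.37, against -0.01, -0.03 and -0.06 over all genes. The libraries of the groups did not overlap in CPM for 27 of the 32 between PVASC and Sub-ASC (77.3% of all genes tested), for 27 between Ab-ASC and Sub-ASC (76.5%) and for 24 between PVASC and Ab-ASC (63.9%). The 3 comparisons share libraries and are not independent of each other. With both of its tests called, 13 of the 32 members were highest in Sub-ASC (28.7% of all genes), 7 were highest in PVASC (10.2%) and 3 were highest in Ab-ASC (20.9%). In the other direction, 10 were lowest in Ab-ASC (15.6%), 10 lowest in Sub-ASC (27.5%) and 5 lowest in PVASC (12%), of which Prrx2 was not lowest when scaled by library total alone. Pbx2, Pbx4 and Dlx4 passed in none of the comparisons.

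**Figure D2:**
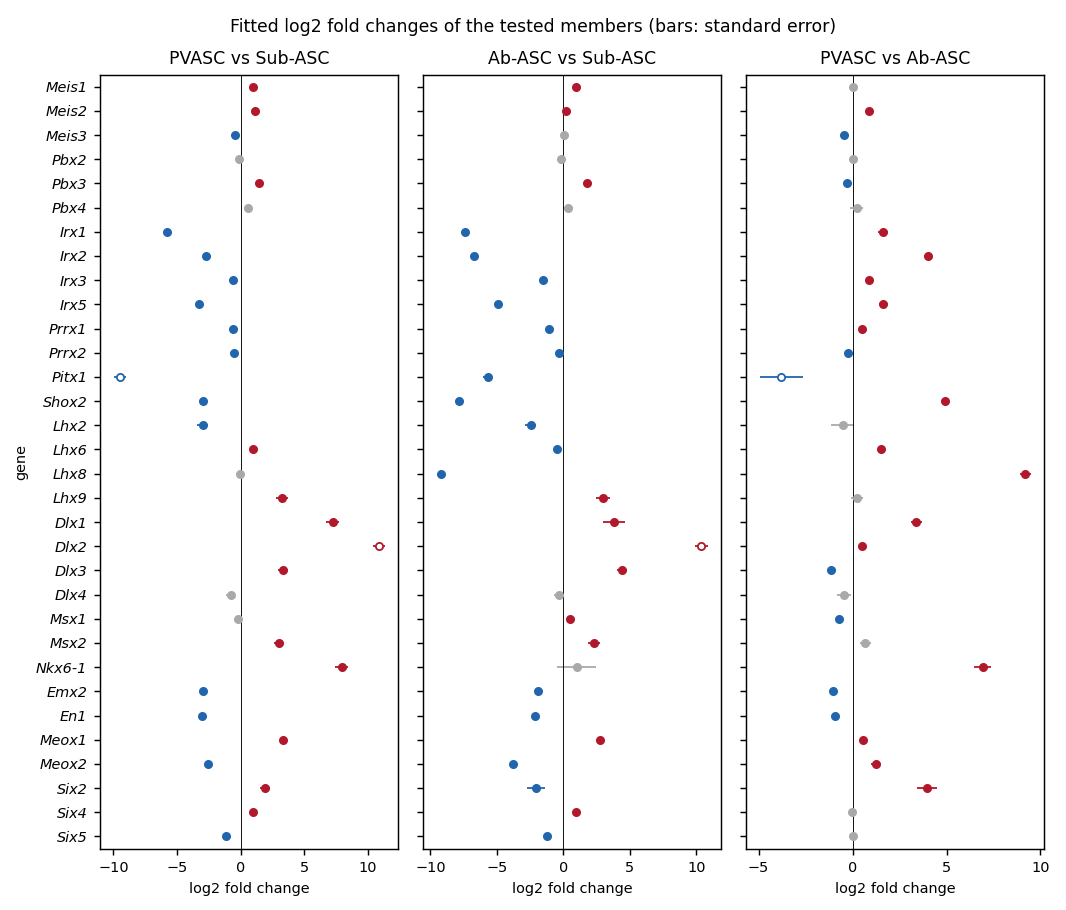
Fitted log2 fold change (x axis) with its standard error for the 32 tested members (y axis, by family) in the 3 comparisons. Red marks genes called higher in the first group, blue genes called lower, grey genes not called, and open symbols genes with 0 reads in 1 group, whose fitted value depends on the prior count. Irx1, Irx2, Shox2 and Lhx8 lie furthest left between Ab-ASC and Sub-ASC, and Lhx8 and Nkx6-1 furthest right between PVASC and Ab-ASC.

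The Iroquois genes, patterning factors of limb, heart and neural tissue, lie in 2 clusters. Irx1 (chr13:71957921-71963723), Irx2 (chr13:72628820-72634198) and Irx4 are on chromosome 13, with gaps of 665 kb and 626 kb (positions in GRCm38, the build whose gene starts and ends 98.1% of the table matches). Irx1 was the second most abundant member in Sub-ASC, at 27.6 ± 0.592 FPKM (mean ± SD, n = 3), behind Prrx1. Its libraries held 72.1, 73.9 and 75.5 CPM in Sub-ASC, 0.430, 0.356 and 0.535 CPM in Ab-ASC and 1.31, 1.02 and 1.72 CPM in PVASC, so Sub-ASC stood far above the others and no 2 groups overlapped. Log2 fold changes are given ± SE throughout, as PVASC over Sub-ASC, Ab-ASC over Sub-ASC or PVASC over Ab-ASC. The fold was 166 between Sub-ASC and Ab-ASC (log2 fold change -7.37 ± 0.15, adjusted p = 4.86e-13) and 54.3 between Sub-ASC and PVASC (log2 fold change -5.76 ± 0.12, adjusted p = 5.69e-13). PVASC was 3.05-fold above Ab-ASC at a low level (log2 fold change 1.61 ± 0.25, adjusted p = 0.000202).

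Irx2, its neighbour on the opposite strand, held 33.2, 32.5 and 34.6 CPM in Sub-ASC, 0.376, 0.356 and 0.223 CPM in Ab-ASC and 5.14, 4.95 and 5.19 CPM in PVASC. The order of the groups was that of Irx1, with PVASC at an intermediate level, 15.9-fold above Ab-ASC (log2 fold change 4.0 ± 0.17, adjusted p = 2.16e-09) and 6.56-fold below Sub-ASC (log2 fold change -2.71 ± 0.08, adjusted p = 2e-11). Ab-ASC lay 105-fold below Sub-ASC (adjusted p = 4.64e-13). Irx4, the ventricular member of the cluster in the heart, had 0 reads in all 9 libraries.

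In the second cluster, on chromosome 8, Irx3 (chr8:91798525-91802067) and Irx5 (chr8:92357625-92376286), regulators of adipocyte thermogenesis, were again highest in Sub-ASC and lowest in Ab-ASC. Irx5 held 11.9, 13.3 and 11.3 CPM in Sub-ASC, 0.268, 0.445 and 0.446 CPM in Ab-ASC and 1.31, 1.15 and 1.21 CPM in PVASC, 30.6-fold lower in Ab-ASC (log2 fold change -4.93 ± 0.18, adjusted p = 7.92e-11) and 9.87-fold lower in PVASC (log2 fold change -3.30 ± 0.13, adjusted p = 2.43e-10) than in Sub-ASC. Irx3 differed far less, with 7.43, 7.15 and 7.97 CPM in Sub-ASC, 2.09, 2.80 and 2.90 CPM in Ab-ASC and 4.92, 5.05 and 4.68 CPM in PVASC. Its log2 fold change was -1.52 ± 0.13 (adjusted p = 4.19e-07) for Ab-ASC and -0.62 ± 0.12 (adjusted p = 0.000378) for PVASC over Sub-ASC, and 0.90 ± 0.14 (adjusted p = 0.000152) for PVASC over Ab-ASC. The antisense gene Irx3os shares 124 exon bases with Irx3 and held 16 to 17 reads in each Sub-ASC library and 0 to 6 in the others, and without a stated strand its reads and those of Irx3 cannot be told apart there. Irx6, the last gene of the cluster, had reads in 1 library only and was not tested. Per gene length, Irx3 stood at 2.66 ± 0.141 FPKM and Irx5 at 3.80 ± 0.317 FPKM in Sub-ASC, and in PVASC the order was turned, with 1.93 ± 0.0705 and 0.428 ± 0.0301 FPKM.

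**Figure D3:**
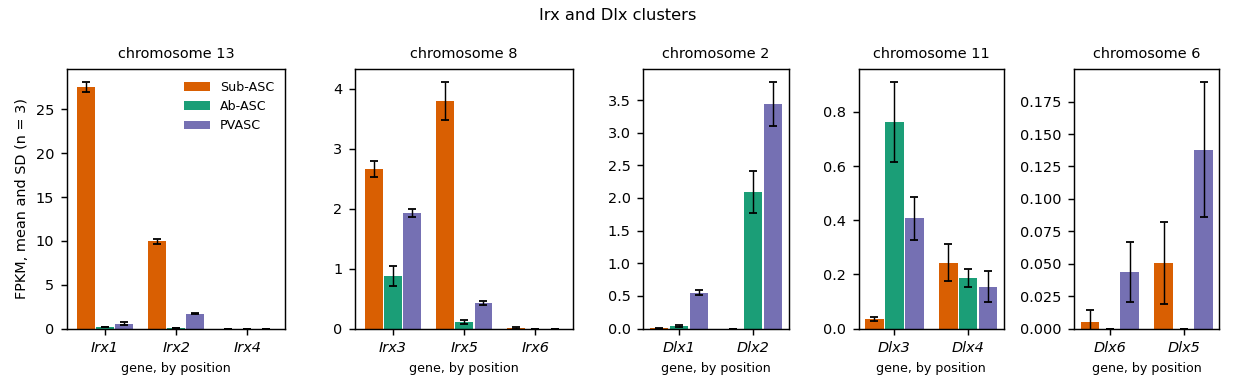
FPKM (y axis, mean with SD over 3 libraries) of the Irx and Dlx genes in the order in which they lie on their chromosomes, by group, each panel with its own scale. Within the Irx clusters Sub-ASC has the tallest bars for Irx1, Irx2, Irx3 and Irx5, and Dlx2 has no Sub-ASC bar.

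All 4 paired-type genes were highest in Sub-ASC, with Prrx1 and Shox2 lowest in Ab-ASC and Pitx1 lowest in PVASC. Prrx1 (chr1:163245119-163313710), a factor of limb and craniofacial mesenchyme, was the most abundant member in every group, at 70.5 ± 3.26 FPKM in Sub-ASC, 32.1 ± 3.32 in Ab-ASC and 52.7 ± 0.444 in PVASC. Its libraries held 799, 832 and 762 CPM in Sub-ASC, 351, 411 and 379 CPM in Ab-ASC and 538, 533 and 532 CPM in PVASC. The groups did not overlap, and the differences were small beside those of the Irx genes, with log2 fold changes of -1.07 ± 0.06 (adjusted p = 6.02e-09) for Ab-ASC and -0.58 ± 0.06 (adjusted p = 2.25e-06) for PVASC over Sub-ASC, and 0.49 ± 0.06 (adjusted p = 2.69e-05) for PVASC over Ab-ASC. Prrx2 was closer still between groups, at 28.7 to 48.8 CPM over all libraries, and was lower in PVASC than in Sub-ASC (log2 fold change -0.55 ± 0.08, adjusted p = 3.67e-05). The TMM-scaled difference between PVASC and Ab-ASC (log2 fold change -0.22 ± 0.08, adjusted p = 0.0303) turned in sign on the FPKM scale, which uses the library total alone, with 17.5 ± 1.33 FPKM in PVASC and 17.4 ± 0.934 FPKM in Ab-ASC and overlapping libraries. Among the called differences of the members, this was the only one whose group means changed order between CPM and FPKM.

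Shox2 (chr3:66971727-66981771), needed for the proximal limb skeleton and the sinoatrial node, held 47.2, 47.7 and 47.1 CPM in Sub-ASC, 0.322, 0.222 and 0.0892 CPM in Ab-ASC and 6.21, 5.93 and 6.58 CPM in PVASC. It was 226-fold lower in Ab-ASC (log2 fold change -7.82 ± 0.16, adjusted p = 4.95e-13) and 7.58-fold lower in PVASC (log2 fold change -2.92 ± 0.09, adjusted p = 2.21e-11) than in Sub-ASC, and PVASC stood 29.8-fold above Ab-ASC (adjusted p = 1.89e-09). The gene Rsrc1 on the other strand shares 153 exon bases with Shox2 and held 475 to 1519 reads per library. Its reads were also fewest in Ab-ASC, and their part in the Shox2 value was not tested.

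Pitx1 (chr13:55825051-55836192), the factor that gives hindlimbs their identity, was found almost only in Sub-ASC. The Sub-ASC libraries held 86, 83 and 95 reads (3.69, 3.26 and 3.62 CPM), the Ab-ASC libraries 1, 2 and 1 reads, and the PVASC libraries 0 reads, which allows up to 0.0917 to 0.102 CPM. Sub-ASC was at least 36.6-fold higher than PVASC, against the floor of 3 reads per library, and 56 times higher than Ab-ASC (95% exact counting interval 21.6 to 207). Both differences from Sub-ASC were called (adjusted p = 2.14e-08 for PVASC and 9.85e-08 for Ab-ASC). The call between PVASC and Ab-ASC rests on 4 reads (adjusted p = 0.0165) and was lost without the second Ab-ASC library (adjusted p = 0.0512). The antisense gene Gm47071 shares 165 exon bases with Pitx1 and held 52 to 68 reads in the PVASC libraries, where Pitx1 had none. Counting intervals and floors cover counting error only, since reads without molecular identifiers are not independent molecules.

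Emx2 (chr19:59458372-59465357), a factor of the urogenital tract, scapula and cortex, and En1 (chr1:120602418-120607992), which marks ventral limb and dermal lineages, were also highest in Sub-ASC but lowest in PVASC rather than in Ab-ASC. Emx2 held 44.95, 46.02 and 45.9 CPM in Sub-ASC, 12.2, 11.9 and 11.6 CPM in Ab-ASC and 5.84, 5.02 and 6.55 CPM in PVASC, 7.85-fold lower in PVASC (log2 fold change -2.97 ± 0.09, adjusted p = 1.37e-11) and 3.84-fold lower in Ab-ASC (log2 fold change -1.94 ± 0.09, adjusted p = 4.97e-10) than in Sub-ASC. PVASC was 2.05-fold below Ab-ASC (log2 fold change -1.03 ± 0.10, adjusted p = 2.3e-06). The antisense gene Emx2os, which shares 264 exon bases with Emx2, was high in the same libraries, with 607 to 664 reads in Sub-ASC, 44 to 71 in Ab-ASC and 60 to 85 in PVASC, and reads of the shared bases cannot be told apart. En1 held 25.7, 24.96 and 24.02 CPM in Sub-ASC, 5.96, 6.05 and 5.44 CPM in Ab-ASC and 3.67, 2.58 and 2.93 CPM in PVASC, 8.10-fold lower in PVASC (log2 fold change -3.02 ± 0.11, adjusted p = 1.33e-10) and 4.28-fold lower in Ab-ASC (log2 fold change -2.10 ± 0.11, adjusted p = 3.11e-09). Of their paralogs, Emx1 had 1 read in 1 library and En2 at most 3 reads in a library.

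The somite factors Meox1 and Meox2 ran in opposite directions between Sub-ASC and the other depots. Meox2 (chr12:37108540-37179534), also known in limb muscle and blood vessels, held 8.80, 9.94 and 9.69 CPM in Sub-ASC, 0.859, 0.667 and 0.535 CPM in Ab-ASC and 1.25, 1.83 and 1.78 CPM in PVASC and was highest in Sub-ASC, 13.9-fold above Ab-ASC (log2 fold change -3.80 ± 0.19, adjusted p = 2.2e-09) and 5.86-fold above PVASC (log2 fold change -2.55 ± 0.15, adjusted p = 1.21e-08). Meox1 (chr11:101877510-101894374) held 1.07, 0.865 and 1.14 CPM in Sub-ASC, 6.98, 7.02 and 7.18 CPM in Ab-ASC and 9.32, 11.2 and 11.1 CPM in PVASC and was lowest in Sub-ASC, with PVASC 10.2-fold (log2 fold change 3.35 ± 0.14, adjusted p = 3.62e-10) and Ab-ASC 6.85-fold higher (log2 fold change 2.78 ± 0.15, adjusted p = 4.19e-09). In Sub-ASC, Meox2 stood at 3.93 ± 0.248 FPKM and Meox1 at 0.451 ± 0.0629 FPKM. In PVASC the levels were 0.750 ± 0.146 FPKM for Meox2 and 5.15 ± 0.495 FPKM for Meox1. PVASC exceeded Ab-ASC for both genes (log2 fold change 1.25 ± 0.24, adjusted p = 0.000885 for Meox2 and log2 fold change 0.57 ± 0.11, adjusted p = 0.000705 for Meox1).

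**Figure D4:**
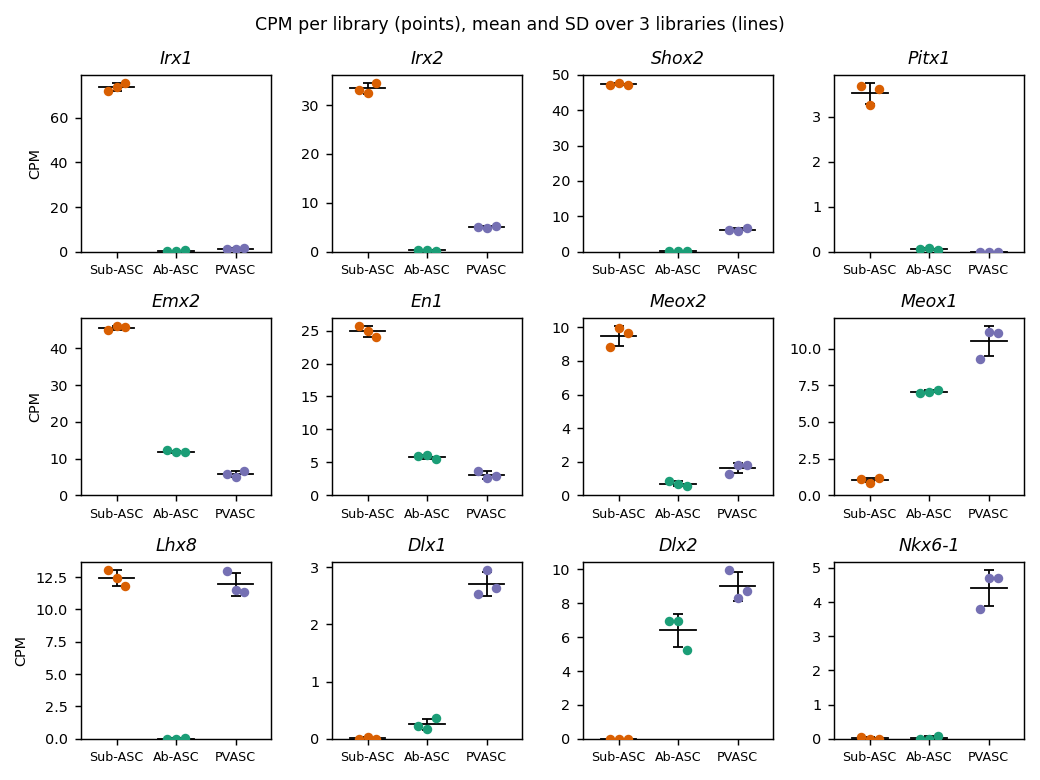
CPM of 12 members in each library (points), with the mean and SD over the 3 libraries of a group (lines), on linear axes from 0. Irx1, Irx2, Shox2, Pitx1, Emx2, En1 and Meox2 are highest in Sub-ASC, Meox1, Dlx1, Dlx2 and Nkx6-1 are highest in PVASC, and Lhx8 is at 11.4 to 13.1 CPM in Sub-ASC and PVASC and near 0 in Ab-ASC.

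Among the genes that were high in PVASC, Nkx6-1 (chr5:101658139-101664996), a factor of pancreatic beta cells and motor neurons, came closest to a PVASC-restricted pattern. PVASC held 124, 139 and 148 reads (3.79, 4.71 and 4.71 CPM), while Sub-ASC held 1, 0 and 0 reads and Ab-ASC 0, 0 and 2 reads. The PVASC level was 329 times that of Sub-ASC (exact counting interval 58.7 to 13000) and 139 times that of Ab-ASC (38.4 to 1160), and both differences were called (adjusted p = 2.01e-08 and 1.44e-07). Per gene length it reached 1.53 ± 0.181 FPKM. The other NK members of the 44, the cardiac factor Nkx2-5 and the spleen factor Nkx2-3, had at most 2 reads in a library and were not tested.

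Dlx1, Dlx2 and Dlx3, homologs of the fly gene Distal-less that act in jaw, forebrain and limb, separated Sub-ASC from the other depots. Dlx1 (chr2:71528113-71533981) and Dlx2 (chr2:71543408-71546754) lie 9.43 kb apart on opposite strands of chromosome 2. Dlx2 had 0 reads in all Sub-ASC libraries, which allows up to 0.114 to 0.129 CPM, and 6.98, 6.98 and 5.26 CPM in Ab-ASC and 9.97, 8.30 and 8.72 CPM in PVASC. PVASC was at least 74.7-fold and Ab-ASC at least 53.2-fold higher than Sub-ASC (adjusted p = 3.77e-09 and 1.15e-08). PVASC stood above Ab-ASC by 1.41-fold (log2 fold change 0.49 ± 0.14, adjusted p = 0.0118), a call that was lost without the first PVASC library (adjusted p = 0.0556).

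Dlx1 shared the near absence in Sub-ASC, with 0, 1 and 0 reads, but stood well below Dlx2 in Ab-ASC. Ab-ASC held 0.215, 0.178 and 0.357 CPM and PVASC 2.54, 2.95 and 2.64 CPM, 10.6-fold more (log2 fold change 3.40 ± 0.31, adjusted p = 1.92e-06). The ratio of PVASC to Sub-ASC was 202 (exact counting interval 36 to 8030, adjusted p = 3.32e-08), and that of Ab-ASC to Sub-ASC was 18.9 (2.93 to 791, adjusted p = 0.00105). Dlx1as, an antisense gene that shares 335 exon bases with Dlx1, had 15 to 26 reads in the Sub-ASC libraries and 17 to 42 in the PVASC libraries. Per gene length, Dlx2 exceeded Dlx1 in PVASC, at 3.44 ± 0.341 against 0.548 ± 0.0412 FPKM, and in Ab-ASC, at 2.09 ± 0.316 against 0.0432 ± 0.0166 FPKM.

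Dlx3 (chr11:95120119-95125296), a factor of placenta, hair and bone, was the Dlx gene with its highest level in Ab-ASC. It held 0.0859, 0.0786 and 0.114 CPM in Sub-ASC, 2.68, 1.87 and 1.87 CPM in Ab-ASC and 1.13, 1.02 and 0.763 CPM in PVASC, with 7 reads over the whole Sub-ASC group. Ab-ASC was 22.6 times above Sub-ASC (exact counting interval 10.7 to 57.2, adjusted p = 2.88e-07), and PVASC lay below Ab-ASC (log2 fold change -1.13 ± 0.24, adjusted p = 0.00165). Dlx4, its neighbour at 15.2 kb, was at 0.271 to 0.992 CPM over all libraries and was called in no comparison. Dlx5 had 10, 5 and 12 reads in PVASC, 1, 3 and 5 in Sub-ASC and 0 in every Ab-ASC library, and Dlx6, 9.24 kb away, had at most 5 reads in a library. Neither Dlx5 nor Dlx6, a pair that shapes the lower jaw, passed the filter. PVASC was at least 2-fold above Ab-ASC for Dlx5.

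Of the LIM-homeodomain genes, Lhx8 (chr3:154306294-154330659), a factor of forebrain neurons and tooth mesenchyme that is also used as a marker of brown fat cells, separated Ab-ASC from the other depots. It held 13.1, 12.4 and 11.8 CPM in Sub-ASC and 12.99, 11.5 and 11.4 CPM in PVASC, which overlapped, and 0, 0 and 1 reads in Ab-ASC. Sub-ASC was 788 times (exact counting interval 141 to 31200) and PVASC 762 times above Ab-ASC (136 to 30100), with adjusted p = 2.75e-11 and 2.02e-10. Between PVASC and Sub-ASC the log2 fold change was -0.05 ± 0.10 (adjusted p = 0.652). Lhx6 (chr2:36081953-36105408), its partner in forebrain and jaw, was present in every group, at 5.93, 4.48 and 4.12 CPM in Sub-ASC, 3.38, 2.89 and 3.92 CPM in Ab-ASC and 9.48, 8.85 and 10.3 CPM in PVASC. PVASC was higher than Sub-ASC (log2 fold change 0.98 ± 0.14, adjusted p = 5.08e-05) and than Ab-ASC (log2 fold change 1.49 ± 0.15, adjusted p = 6.59e-06). The smaller difference between Ab-ASC and Sub-ASC (log2 fold change -0.50 ± 0.17, adjusted p = 0.0163) lost its call without the first Sub-ASC library (adjusted p = 0.0756) or the second Ab-ASC library (adjusted p = 0.0725).

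The other LIM genes among the 44 were under 1 CPM in every library. Lhx2, of hair follicle and limb, held 0.458 to 0.730 CPM in Sub-ASC and 0.0611 to 0.134 CPM elsewhere, and was called higher in Sub-ASC than in PVASC (adjusted p = 3.69e-05) and Ab-ASC (adjusted p = 0.000217). Lhx9, needed for the gonads, was the other way round, with 5 reads over the Sub-ASC group, 36 over Ab-ASC and 63 over PVASC (adjusted p = 0.000162 and 5.03e-05 against Sub-ASC). Isl1, of cardiac progenitors and motor neurons, and Lhx1, of kidney and head, were not tested.

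The TALE cofactors of Hox proteins (Meis and Pbx) had reads in every library of all depots. Meis2 (chr2:115863064-116065839) was highest in PVASC, with 29.5, 32.7 and 31.1 CPM in Sub-ASC, 33.1, 37.2 and 39.2 CPM in Ab-ASC and 65.2, 68.02 and 67.6 CPM in PVASC, 2.15-fold above Sub-ASC (log2 fold change 1.11 ± 0.07, adjusted p = 2.23e-08) and 1.83-fold above Ab-ASC (log2 fold change 0.87 ± 0.07, adjusted p = 7.19e-07). Its small difference between Ab-ASC and Sub-ASC (log2 fold change 0.23 ± 0.07, adjusted p = 0.0116) was not called in a fit of those groups alone (adjusted p = 0.0536), or without the first Sub-ASC library (adjusted p = 0.0578) or the third Ab-ASC library (adjusted p = 0.0555). Meis1 was at 36.9 to 41.6 CPM in Ab-ASC and PVASC, which overlapped, and at 18.5 to 21.4 CPM in Sub-ASC (log2 fold change 1.0 ± 0.07, adjusted p = 8.39e-08 for PVASC over Sub-ASC). The gene model Gm37818 shares 1029 exon bases with Meis1 on the same strand and held 3 to 21 reads per library. Meis3 was lower in PVASC (log2 fold change -0.41 ± 0.09, adjusted p = 0.00108 against Sub-ASC and log2 fold change -0.47 ± 0.09, adjusted p = 0.000656 against Ab-ASC).

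Pbx3 (chr2:34171457-34373142) held 7.69, 8.06 and 7.55 CPM in Sub-ASC, 28.6, 24.98 and 24.8 CPM in Ab-ASC and 20.6, 22.6 and 20.8 CPM in PVASC. It was 3.36-fold higher in Ab-ASC (log2 fold change 1.75 ± 0.09, adjusted p = 1.7e-09) and 2.75-fold higher in PVASC (log2 fold change 1.46 ± 0.09, adjusted p = 9.58e-09) than in Sub-ASC, and slightly lower in PVASC than in Ab-ASC (log2 fold change -0.29 ± 0.08, adjusted p = 0.00727). Scaled by library total alone, the libraries of PVASC and Ab-ASC overlapped, at 3.81 ± 0.182 and 3.99 ± 0.228 FPKM. Pbx2 was at 32.3 to 39.7 CPM over all 9 libraries and passed in no comparison, with log2 fold changes of -0.13 ± 0.07, 0.03 ± 0.07 and -0.16 ± 0.07 for PVASC over Sub-ASC, PVASC over Ab-ASC and Ab-ASC over Sub-ASC (adjusted p = 0.123, 0.768 and 0.0671). Gpsm3 shares 227 exon bases with Pbx2 on the same strand and held 138 to 414 reads per library. Pbx4 was at 0.275 to 0.734 CPM and was likewise not called.

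Of the sine oculis and Msx genes, Six5 was highest in Sub-ASC, Six2 in PVASC and Msx1 in Ab-ASC. Six5 (chr7:19094594-19098549), studied in muscle and lens, held 23.8, 21.6 and 22.6 CPM in Sub-ASC, 11.1, 8.94 and 9.54 CPM in Ab-ASC and 11.2, 8.85 and 9.73 CPM in PVASC, 2.28-fold lower in PVASC (log2 fold change -1.19 ± 0.10, adjusted p = 4.76e-07) and 2.30-fold lower in Ab-ASC (log2 fold change -1.20 ± 0.11, adjusted p = 5.46e-07) than in Sub-ASC. Six4, of muscle precursors, was higher in PVASC (log2 fold change 0.94 ± 0.16, adjusted p = 0.000178) and in Ab-ASC (log2 fold change 0.97 ± 0.16, adjusted p = 0.000151) than in Sub-ASC. Six2, which keeps nephron progenitors, was under 1 CPM everywhere, with 0.712 to 0.922 CPM in PVASC, 0.172 to 0.267 CPM in Sub-ASC and 3 reads over the Ab-ASC group. By reads, PVASC was 17.2 times above Ab-ASC in Six2 (exact counting interval 5.66 to 85.2, adjusted p = 6.02e-05), and it was 3.74-fold above Sub-ASC (log2 fold change 1.90 ± 0.38, adjusted p = 0.000649). Msx1 and Msx2 are targets of BMP signaling in tooth and skull. Msx1 was highest in Ab-ASC, at 6.01 to 7.27 CPM against 3.66 to 5.31 CPM in the other libraries (log2 fold change 0.49 ± 0.14, adjusted p = 0.00624 against Sub-ASC and log2 fold change -0.71 ± 0.14, adjusted p = 0.000815 for PVASC over Ab-ASC). Msx2 was at 0.0859 to 0.157 CPM in Sub-ASC and at 0.400 to 1.18 CPM in the others (log2 fold change 3.0 ± 0.41, adjusted p = 2.74e-05 and log2 fold change 2.31 ± 0.46, adjusted p = 0.000571 for PVASC and Ab-ASC over Sub-ASC).

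Both Barx genes were below the filter. Barx2 had 8, 10 and 11 reads in Sub-ASC and 0 in all Ab-ASC and PVASC libraries, so that Sub-ASC was at least 4-fold above PVASC and at least 2.7-fold above Ab-ASC. Barx1, the stomach mesenchyme factor, had 13, 10 and 14 reads in PVASC, 6, 3 and 0 in Ab-ASC and 7, 0 and 0 in Sub-ASC. When the filter was dropped, Barx2 was called in both comparisons with Sub-ASC (adjusted p = 5.86e-06 for PVASC and 6.04e-05 for Ab-ASC), Barx1 between PVASC and Sub-ASC (adjusted p = 0.0096), Dlx5 in both comparisons with Ab-ASC (adjusted p = 0.000246 for PVASC and 0.0144 for Sub-ASC) and Lhx1 between Ab-ASC and Sub-ASC (adjusted p = 0.0403). For Dlx5 between Sub-ASC and Ab-ASC (9 reads against 0) and for Lhx1 between Ab-ASC and Sub-ASC (7 reads against 0) the ratio to the floor was under 1, at 0.821 and 0.964, so no minimum fold follows from these reads.

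Markers of other cell types differed between the same groups. The 10 endothelial markers together held 888.3 to 892.1 CPM in PVASC, 213.9 to 225.1 CPM in Sub-ASC and 76.77 to 78.5 CPM in Ab-ASC, with 8 higher and 1 lower in PVASC than in Sub-ASC and 9 higher than in Ab-ASC. Cdh5 averaged 209 CPM in PVASC, and none of the 10 was at 0 in any group. Of the 10 neural and Schwann cell markers, Sox10 and Foxd3 averaged 11.9 and 4.92 CPM in PVASC, against 0.638 and 0.527 CPM in Sub-ASC and 0.253 and 0.0149 CPM in Ab-ASC, while Elavl3 had 0 reads in PVASC. Their sum was 193.2 to 196.7 CPM in PVASC, 33.02 to 35.59 CPM in Sub-ASC and 211.9 to 223 CPM in Ab-ASC, where Ncam1 alone averaged 169.5 CPM. Nkx6-1, Dlx1, Dlx2, Lhx6, Meis2, Meox1 and Six2 were highest in the same PVASC libraries, and the part of these cell types in their values was not tested.

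The 14 mesothelial markers held 182.3 to 197 CPM in Ab-ASC, 106.9 to 110.7 CPM in PVASC and 47.91 to 51.48 CPM in Sub-ASC, and 12 of the 13 tested were higher in Ab-ASC than in Sub-ASC. Wt1 averaged 47.6 CPM in Ab-ASC, 9.91 CPM in PVASC and 0.600 CPM in Sub-ASC, and Upk1b, Lrrn4 and Muc16 had 0 reads in Sub-ASC. The 10 smooth muscle and pericyte markers held 4617 to 5702 CPM in Ab-ASC, 2887 to 3035 CPM in PVASC and 203 to 208.3 CPM in Sub-ASC. Dlx2, Dlx3, Pbx3, Meox1 and Msx2 were lowest in Sub-ASC as these lists were, as were the proliferation genes. The genes highest in Sub-ASC, among them Irx1, Shox2 and Pitx1, were highest in the group with the highest adipose stromal and adipocyte sums. Between the other groups the orders differed: Irx1, Shox2 and the adipocyte sum were lower in Ab-ASC than in PVASC, and Pitx1 and the adipose stromal sum were not. The part of any of these lists in the homeobox values was not tested. The 10 skeletal muscle markers summed to 91.59 to 100.9 CPM in Ab-ASC, 35.89 to 38.5 CPM in PVASC and 9.865 to 10.6 CPM in Sub-ASC, with Des and Acta1 the most counted in Ab-ASC and PVASC, while Myf5 and Pax7 had 0 reads in all libraries. The 5 tested genes were split, with 2 called higher and 3 lower in PVASC than in Sub-ASC. In Ab-ASC 2 were higher and 2 lower than in Sub-ASC, and 3 were lower in PVASC than in Ab-ASC. The 10 macrophage markers summed to 303.6 to 315.6 CPM in Sub-ASC, 334.4 to 439.1 CPM in Ab-ASC and 320 to 330.3 CPM in PVASC. Most single genes ran against these sums, with 8 called lower and 2 higher in PVASC than in Sub-ASC. The counts were also 8 lower and 2 higher in Ab-ASC against Sub-ASC. The 10 adipocyte markers summed to 312.2 to 334.1 CPM in Sub-ASC, 98.77 to 105.3 CPM in Ab-ASC and 127.8 to 131.1 CPM in PVASC. Cardiomyocyte markers summed to at most 5.369 CPM and epithelial markers to at most 4.456 CPM in any library, and Myh6 had 0 reads in all libraries.

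Other homeobox genes outside the Hox clusters, 113 in the table and 46 tested, were listed beside the members. Between PVASC and Sub-ASC 30 of the 46 were called (12 higher, 18 lower), which is 65.2% against 70.4% of all genes. Between PVASC and Ab-ASC 31 were called (17 higher, 14 lower), 67.4% against 56.9%, and between Ab-ASC and Sub-ASC 35 (13 higher, 22 lower), 76.1% against 75.3%. Named here are Zeb1, Zhx1 and Zhx2, zinc-finger homeobox repressors, which had the highest FPKM averaged over the 3 groups among those called at 2-fold. Zeb1 held 84.4, 91.6 and 79.8 CPM in Sub-ASC, 34.7, 59.3 and 51.8 CPM in Ab-ASC and 109, 110.3 and 109 CPM in PVASC and was 2.24-fold higher in PVASC than in Ab-ASC (log2 fold change 1.17 ± 0.14, adjusted p = 2.58e-05). Its call between PVASC and Sub-ASC (log2 fold change 0.36 ± 0.14, adjusted p = 0.0342) was lost without the first or the third Sub-ASC library or any PVASC library, with adjusted p from 0.0636 to 0.113. Zhx1 was lowest in Ab-ASC (log2 fold change -1.47 ± 0.18, adjusted p = 9.59e-06 against Sub-ASC) and Zhx2 lowest in PVASC (log2 fold change -1.32 ± 0.08, adjusted p = 7.34e-09 against Sub-ASC).

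Alx1 and Lmx1a were among the largest changes on that list. Alx1, a factor of facial mesenchyme, had 0 reads in Sub-ASC, 5.85, 5.78 and 5.80 CPM in Ab-ASC and 0.642, 0.678 and 0.414 CPM in PVASC (log2 fold change -3.32 ± 0.21, adjusted p = 4.17e-07 for PVASC over Ab-ASC). Lmx1a, of dopamine neurons, had 3.61, 3.66 and 3.85 CPM in Sub-ASC, 0 reads in Ab-ASC and 1, 3 and 0 reads in PVASC (adjusted p = 3.07e-07 and 2.2e-07 against Sub-ASC).

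Of 32 partner proteins of homeodomain factors in the table, 31 were tested. Between PVASC and Sub-ASC 28 of them were called (7 higher, 21 lower; 90.3% against 70.4% of all genes), between Ab-ASC and Sub-ASC 29 (8 higher, 21 lower; 93.5% against 75.3%) and between PVASC and Ab-ASC 19 (10 higher, 9 lower; 61.3% against 56.9%). Ldb2, a LIM-domain binding partner of Lhx proteins, held 26.2, 28.02 and 24.6 CPM in Sub-ASC, 1.503, 1.25 and 0.892 CPM in Ab-ASC and 5.41, 5.39 and 6.20 CPM in PVASC, 21.8-fold lower in Ab-ASC than in Sub-ASC (log2 fold change -4.45 ± 0.15, adjusted p = 3.06e-11). Eya1, a coactivator of the sine oculis proteins, had 51, 53 and 49 reads in PVASC, 6, 3 and 1 in Sub-ASC and 0 in Ab-ASC (log2 fold change 3.57 ± 0.43, adjusted p = 2.72e-05 for PVASC over Sub-ASC). Among the Groucho corepressors, Tle2 was highest in Sub-ASC (log2 fold change -2.88 ± 0.12, adjusted p = 2.14e-10 for Ab-ASC and log2 fold change -1.72 ± 0.10, adjusted p = 9.17e-09 for PVASC over Sub-ASC). Aes, a short member of the same family, was lowest in Ab-ASC (log2 fold change -1.22 ± 0.07, adjusted p = 1.31e-08 against Sub-ASC and log2 fold change 0.96 ± 0.07, adjusted p = 4.73e-07 for PVASC over Ab-ASC). Lmo4, a LIM-only protein, was highest in Sub-ASC, 2.36-fold above PVASC (log2 fold change -1.24 ± 0.06, adjusted p = 6.95e-10).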

How the data were processed

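Bulk mRNA sequencing of 9 libraries (Sub-ASC, Ab-ASC and PVASC, 3 each, grouped by the labelled tissue) was analysed. The authors deposited raw read counts per gene, with gene length and position, without normalization or filtering. Per the submitters' processing notes, CASAVA 1.8, Bowtie 0.12.2 and featureCounts 1.5.0-p3 were used, with mm8 and mm10 named and no roles given. The strandedness of the library kit is not given in the sources used here. Of 54532 genes, 53499 have the start and end of GENCODE M21 (GRCm38), including 43 of the 44 members, Nkx2-5 being the other. No read was counted for 23735 genes.

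Counts were normalized with TMM and tested in edgeR 4.0.16 (R 4.3.3) with the quasi-likelihood test, 1 fit of all 9 libraries with the group as the only term, after filterByExpr, with Benjamini-Hochberg adjustment over 16526 genes and a threshold of 0.05. SE is the absolute log2 fold change over the square root of F. FPKM was computed from the deposited counts, the listed length and the library total. The script was tested on simulated data. With 3 libraries a group, no single-gene permutation test was used. Alternatives were RLE size factors, DESeq2 1.42.0, other filters, a fold cutoff, only the groups compared, a replicate block and leaving out each library.

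Every library's value is given for members called with at least a 2-fold change in a comparison and a mean of at least 1 CPM in a group, and for untested members with at least 10 reads in a library. From the other homeobox and partner lists, the 3 genes with the highest FPKM and the 3 with the largest change among those called at 2-fold were named. Of these, 2 are not reported here. The members and lists were chosen with earlier results of these data known.

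Motifs were searched in RefSeq promoter windows with Python 3.11.15. No protein sequence was used here.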

Additional observations from a re-analysis of the deposited data

How the results depend on the processing

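Over 105 results and 16 alternative settings, 1536 alternative values were computed. Of the values for single genes, 1375 kept their direction and side of the threshold, 12 lost the call, 1 gained it and 4 changed sign. With a 2-fold cutoff, 13 of the 32 members were called between PVASC and Ab-ASC (40.6%). That cutoff left 18, 19 and 20 of 46 other homeobox genes (39.1%, 41.3% and 43.5%) and 11, 8 and 11 of 31 partner genes (35.5%, 25.8% and 35.5%) for PVASC against Sub-ASC, PVASC against Ab-ASC and Ab-ASC against Sub-ASC, beside 32.2%, 15.4% and 37.8% of all genes. With at least 10 reads required in every library, 16 members were tested and 14, 11 and 15 were called in the same order (87.5%, 68.8% and 93.8%), since fewer genes entered, beside 72.7%, 60.6% and 77.9% of 13104 genes. Leaving out 1 library gave 27 to 29, 22 to 24 and 26 to 29 called members, 29 to 33, 28 to 32 and 31 to 35 other homeobox genes, and 26 to 28, 17 to 21 and 28 to 31 partner genes. In these fits 32 to 34 members, 46 to 47 other homeobox genes and 31 partner genes were tested. Of all genes, 64.8% to 74.5%, 49.1% to 56.6% and 70.5% to 74.4% were called, in the same order of comparisons.

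The sign changes were in differences that were not called. For Six5 between PVASC and Ab-ASC the log2 fold change was -0.05 without the second and -0.01 without the third Ab-ASC library, and -0.085 without the first PVASC library, within a range of -0.085 to 0.106 over the libraries left out. For Nkx6-1 between Ab-ASC and Sub-ASC it was -1.92 without the third Ab-ASC library, within a range of -1.92 to 2.92. The cause was not tested.

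Whether libraries of the same replicate number were paired is not stated. Correlations of same-numbered deviations were 0.0146 to 0.0268 for PVASC and Sub-ASC, -0.0501 to -0.0224 for PVASC and Ab-ASC, and -0.112 to 0.195 for Ab-ASC and Sub-ASC. With 3 libraries a group, these values cannot decide whether libraries shared a source. With the replicate block, 28, 23 and 27 members (87.5%, 71.9% and 84.4%), 30, 29 and 34 other homeobox genes (65.2%, 63% and 73.9%) and 28, 19 and 29 partner genes (90.3%, 61.3% and 93.5%) were called. The shares over all genes under that block were 69.3%, 55.6% and 74.4%. Members under about 1 CPM rest on few reads, and depth limits what can be seen of them.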
